A study of Drosophila melanogaster with 4 samples.

Results

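The Hox gene complexes on chromosome arm 3R of Drosophila melanogaster carried 19 of the 1348 peaks of a chromatin immunoprecipitation (ChIP-seq) list for the transcription factor Paired (Prd). The members are the peaks on 3R whose middle lay in 1 of 2 windows on FlyBase release 5. The window from 2450000 to 2850000 stands for the Antennapedia complex and held 10 peaks, and the window from 12450000 to 12820000 stands for the bithorax complex and held 9. The rest of 3R held 183 of the arm's 202 peaks. The windows were set by position, and no score or width was used to choose the members. The choice was made with earlier results of these data known, which bears on the counts and densities below.

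The study compared 2 libraries precipitated with the antibody RF12 against Prd and 2 input DNA libraries. Both groups came from whole embryos collected over 0 to 12 h of development, so every stage of that span is mixed in each library. The material of both groups was crosslinked with 1.8% formaldehyde for 15 min. RF12 is an affinity-purified polyclonal rabbit antibody. The labels give its antigen as the last 258 residues of Prd, from residue 355 to 613, without the paired repeat between residues 552 and 572. These labelled numbers do not match each other exactly and are given as they stand. Both groups also share 1 strain, Y cn bw sp. Its labelled genotype includes lab[R4.2], an allele of 1 of the 8 Hox genes considered here, together with LysC[1], Rh6[1], GstD5[1] and MstProx[1]. The other labelled alleles are sp[1], bw[1], cn[1], CG33964[R4.2], Gr22d[1], Gr22b[1], oc[R3.2] and y[1].

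Hox genes encode homeodomain transcription factors that give the segments of the embryo their identity, and in each complex they lie along the chromosome in the order in which they act along the body axis. Long stretches of regulatory DNA lie between and within them, above all in the bithorax complex. Prd carries a paired domain and a homeodomain and is a pair-rule factor, acting in the subdivision of the embryo into segments.

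The gene order was taken from the RefSeq gene table of release 6, in which all 8 Hox genes of the 2 complexes were found. From low to high coordinates the Antennapedia complex has lab, a gene of the head, and pb, which specifies mouthparts. They are followed by zen2 and zen (zen acts in dorsal patterning), bcd, the anterior morphogen, and Ama, a cell adhesion gene. Next come Dfd, which acts in the jaw segments, the microRNA gene mir-10, and Scr, which acts in the labial and the first thoracic segment. At the high end are ftz, a pair-rule gene like prd, and Antp, which specifies the thorax. In the bithorax complex the order is Ubx, which specifies the posterior thorax, the non-coding RNA bxd, abd-A, the non-coding RNA iab4 and Abd-B, the last 2 Hox genes acting in the abdomen. The table lists 18 further protein-coding genes between lab and Antp, 3 of them Hox genes, and 4 between Ubx and Abd-B, including abd-A. The peaks are on release 5 and the table is on release 6, and coordinates were not converted, so no peak is assigned to a gene here.

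Peaks were denser in both complexes than over the rest of 3R. The Antennapedia complex had 25.0 peaks per Mb (95% exact Poisson interval 12.0 to 46.0) and the bithorax complex had 24.3 per Mb (11.1 to 46.2), against 6.78 per Mb (5.83 to 7.84) over the rest of 3R. The ratio to the rest of 3R was 3.69 (1.77 to 6.78) for the Antennapedia complex and 3.59 (1.64 to 6.81) for the bithorax complex. With the windows narrowed by 50 kb on each side, the bithorax count was 4 and its ratio 2.14, while the Antennapedia count stayed at 10 and its ratio was 4.82. No interval was computed for the narrowed windows. The bithorax density in its narrowed window is thus not shown to exceed that of the rest of 3R beyond counting error. For both complexes together, with 24.7 peaks per Mb, the ratio was 3.64 (2.19 to 5.68). The peaks covered 0.753% of the Antennapedia window and 0.918% of the bithorax window, against 0.257% of the rest of 3R. The intervals cover counting error only and treat peaks as independent. Those of the ratios cover the error of the count in the complexes, with the density of the rest of 3R taken as fixed. The deposited list has 1 line per peak and no value per library, so the spread between replicates was not measured, depth is unknown, and no difference was tested.

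Few windows of the same size on 3R held as many peaks. Among 2579 windows of 400 kb, placed every 10 kb and overlapping neither complex, the median was 2 peaks, 309 windows had none, and 3.06% had at least the 10 peaks of the Antennapedia complex. Among 2588 windows of 370 kb the median was also 2 peaks, 360 windows had none, and 2.90% had at least the 9 peaks of the bithorax complex. The windows that matched or passed the complexes lay in 2 regions of the arm, for either window size. For the Antennapedia comparison these regions ran from 400001 to 1190000, with 21 peaks, and from 4340001 to 5120000, with 17 peaks. Up to 19 peaks fell in 1 window of the region from 400001 to 1190000 and up to 15 in 1 window of the region from 4340001 to 5120000. Windows that overlap share peaks, so these shares are a description of the arm and carry no p-value. Among windows that do not overlap each other, 2 of 65 of the larger size and 2 of 71 of the smaller size reached the count of their complex.

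**Figure D1:**
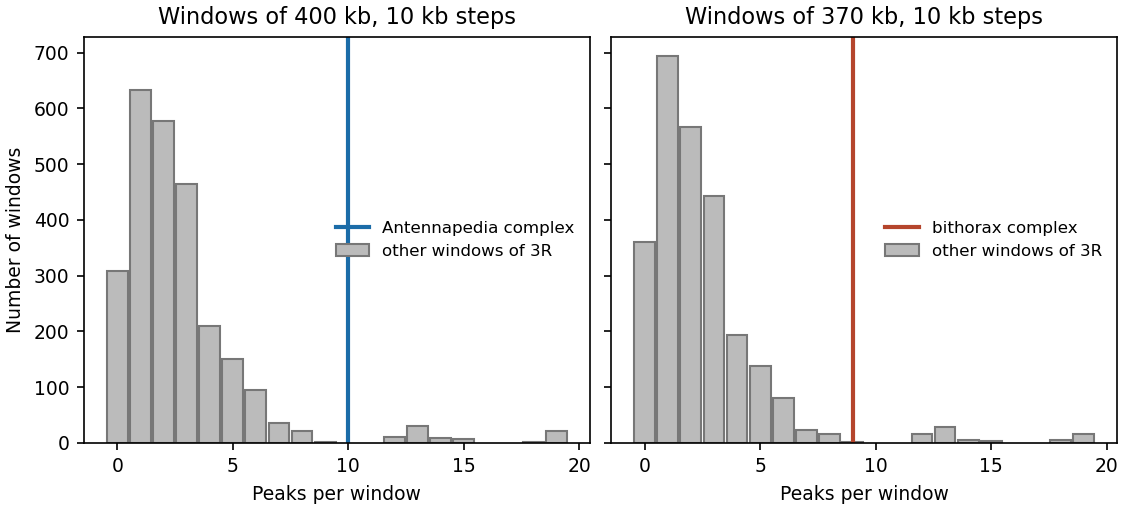
Number of peaks per window (x axis) against the number of windows (y axis) for windows of 400 kb (left) and 370 kb (right) on 3R in steps of 10 kb, with a coloured line at the count of each complex. The lines at 10 and 9 peaks stand to the right of most windows, whose median is 2 peaks, and the few windows beyond them reach 19 peaks.

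The peaks of the complexes differed from those of the 2 dense regions in the kind of score they carried. Each peak has 1 score of unnamed quantity. Most scores of the list equal, within 0.01, minus log10 of the Poisson upper-tail probability of a whole number of reads with a common mean of 56.2 reads. Such scores are called ladder scores here, and the whole number is an inferred read number, not an observed count. All 19 peaks of the complexes had ladder scores, against 73.8% of the peaks on the rest of 3R and 61.9% of the whole list. This trait is not particular to the complexes. The nearest peak on either side of each window also had a ladder score, and long runs of consecutive peaks elsewhere on 3R had only ladder scores. In the region from 400001 to 1190000 the share was 47.6%, and in the region from 4340001 to 5120000 it was 35.3%. The 2 regions also differed in spacing: 76.2% and 82.4% of their peaks had a neighbour under 10 kb away, middle to middle, against 60% in the Antennapedia complex and 22.2% in the bithorax complex. The 2 regions were picked from this same list for their high counts, and high counts in themselves place peaks close together. These shares are therefore a description only.

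Counted with ladder peaks alone, no other window of 400 kb on 3R held the 10 peaks of the Antennapedia complex, and the highest count was 9. At 370 kb, 13 windows, or 0.502%, held the 9 peaks of the bithorax complex, all within the region from 590001 to 1080000. The density ratio to the rest of 3R was then 5.00 for the Antennapedia complex and 4.86 for the bithorax complex. This count was added after the list had been seen. Since all 19 peaks of the complexes and only 73.8% of the rest of 3R have ladder scores, the rise of the ratios restates that difference and adds no evidence of density.

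In the Antennapedia complex the peaks lay in the middle of the window, with none in its highest 100 kb. Divided into 4 parts of 100 kb from low to high coordinates, the window held 2, 5, 3 and 0 peaks. A stretch of 82.1 kb before the first peak and one of 111 kb after the last were free of peaks. The 10 peaks spanned 207 kb from the first middle to the last, and neighbouring middles were 20.5 kb apart in the median, with a range from 0.622 to 57.9 kb. Because the window is wider than the stretch with peaks, narrowing it by 50 kb on each side left all 10 inside.

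The lowest part of the Antennapedia window held a close pair. Its members ran from 2532080 to 2532347, with a score of 12.01 and 268 bp wide, and from 2534627 to 2534886, with a score of 20.76 and 260 bp wide. Their middles were 2.54 kb apart, and the peak before them on the arm was 420 kb away.

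The next part, with the most peaks of either complex, had 5, of which 3 scored above and 2 below the median of the list, 14.4. A peak from 2585297 to 2585528 scored 16.52 and, at 232 bp, was the narrowest of the complex. It was followed by peaks from 2605803 to 2606089 with a score of 19.17 and from 2617196 to 2617477 with 24.08. A second close pair, 1.72 kb apart, ran from 2646197 to 2646471 and from 2647902 to 2648207. With 11.06 and 12.67, this pair included the lowest score of either complex.

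The highest scores of the Antennapedia complex stood at the upper end of the stretch with peaks. A peak from 2680041 to 2680366 scored 31.74 with an inferred 166 reads. The highest of the complex, from 2737907 to 2738289, scored 38.61 with an inferred 180 reads, 3.20 times the common mean. Directly beside it, after a gap of 233 bp, lay a peak from 2738523 to 2738916 with a score of 28.04 and an inferred 158 reads. The 3 parts with peaks had median scores of 16.4, 16.5 and 31.7 from low to high coordinates. None of the peaks of this complex was among the highest 10% of the list by score. That class held 18.6% of the peaks on the rest of 3R and 10.0% of the list. The highest Antennapedia peak, with 38.61, ranked 136 in the list and fell just short of the class's cutoff of 38.76.

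**Figure D2:**
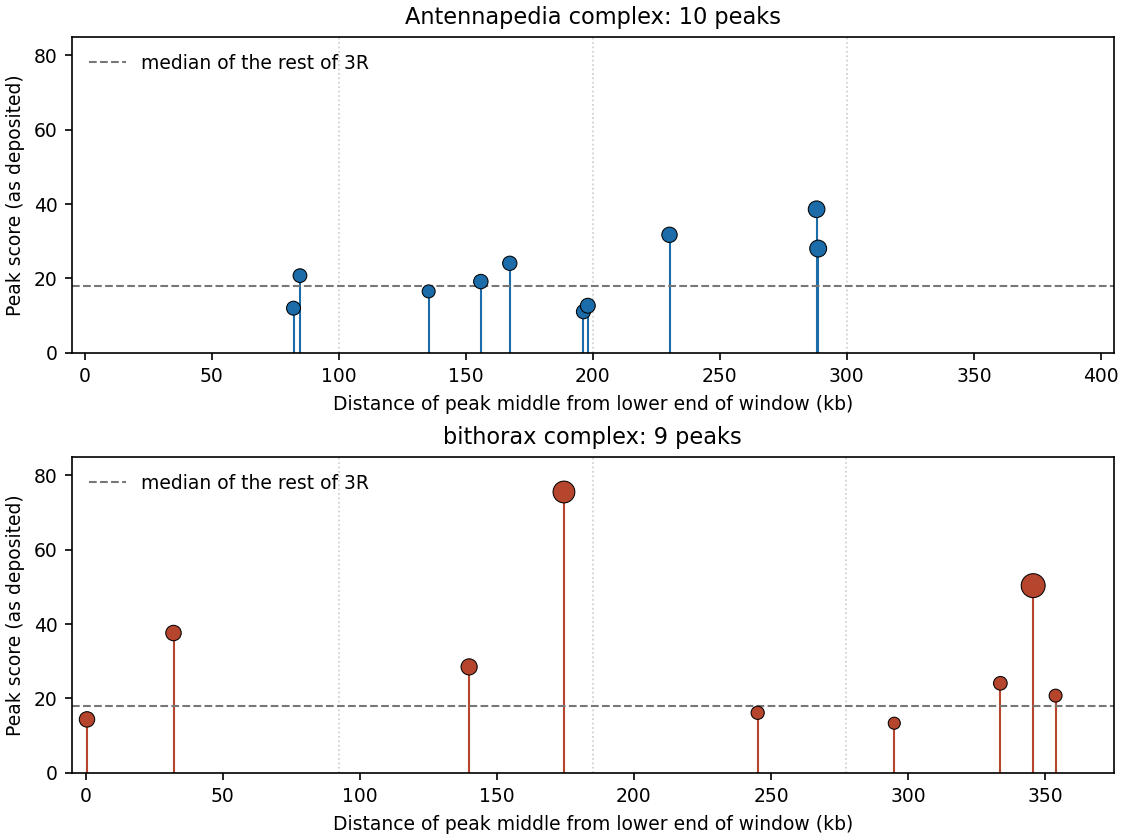
Score of each peak (y axis, as deposited) against the distance of its middle from the lower end of its window (x axis, kb) in the Antennapedia complex (top) and the bithorax complex (bottom), with larger circles for wider peaks, dotted lines between the 4 parts and a dashed line at the median score of the rest of 3R (17.9). Peaks of the Antennapedia complex lie between 82.2 and 289 kb, with the highest at 38.61, and those of the bithorax complex run over the whole window, with the highest at 75.52.

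In the bithorax complex the peaks were spread over the window, and the 2 highest were also the 2 widest. Its 4 parts of 92.5 kb held 2, 2, 1 and 4 peaks from low to high coordinates. The 9 peaks spanned 353 kb, and neighbouring middles were 36.6 kb apart in the median, with a range from 8.18 to 108 kb. Between the second and the third peak 107 kb were free of peaks, and between the fourth and the fifth 70.2 kb.

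The highest peak of either complex was the fourth of the bithorax complex, from 12624158 to 12624813. It scored 75.52 with an inferred 244 reads, 4.34 times the common mean, and was 656 bp wide. By score it ranked 7 on 3R and 30 in the list. Windows of 370 kb on 3R with a peak at least as high made up 9.97% of those counted, and windows of 400 kb with a peak at least as high as the highest of the Antennapedia complex made up 40.6%. The other high peak, from 12795261 to 12796051, scored 50.34 with an inferred 202 reads and ranked 23 on 3R by score. At 791 bp it was the widest of either complex and ranked 8 on 3R by width. Both were among the highest 10% of the list by score, which makes 22.2% of the 9 bithorax peaks, near the 18.6% of the rest of 3R.

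The remaining bithorax peaks scored between 13.34 and 37.6. In the lowest part of the window a peak from 12450335 to 12450662 scored 14.37 and began 335 bp inside the window's lower end. It was followed by a peak from 12481894 to 12482223 with a score of 37.6. A peak from 12589717 to 12590077 then scored 28.49.

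Above the highest peak came 2 low ones, from 12695038 to 12695278 with a score of 16.14 and from 12744888 to 12745088 with 13.34. The peak with 13.34, 201 bp wide, had the smallest width found anywhere in the list. Close to the upper end of the window, 3 peaks lay within 20.1 kb: one from 12783558 to 12783814 with 24.08, the wide peak with 50.34, and one from 12803719 to 12803949 with 20.76. The next peak on the arm was 557 kb away, middle to middle.

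Scores of the complexes overlapped widely with those of the rest of 3R. The median was 20.0 in the Antennapedia complex (exact 95% interval from order statistics 12.0 to 31.7) and 24.1 in the bithorax complex (14.4 to 50.3), against 17.9 (15.1 to 20.5) on the rest of 3R. The scores ran from 11.06 to 38.61 in the Antennapedia complex and from 13.34 to 75.52 in the bithorax complex, against 7.25 to 136.38 on the rest of 3R. The upper 50% of the list by score, taken with ties, held 7 of the 10 Antennapedia peaks and 8 of the 9 bithorax peaks, against 62.3% on the rest of 3R and 51.0% of the list. One of those 8, the peak beginning at 12450335, scored exactly the median of the list. Of the 1348 peaks of the list, 202 lay on 3R and 415 on 2L, 3L and X, and the others elsewhere, 2R included. The list is a lower baseline than these arms: its median score was 14.4, against 18.4 on 3R and 16.1 on 2L, 3L and X. Among ladder peaks the median inferred number was 139 reads in the Antennapedia complex, 149 in the bithorax complex and 147 on the rest of 3R. The interval of each complex held the median of the rest of 3R, although the bithorax median lay above the interval of the rest of 3R. The sign of the difference in median score for the Antennapedia complex depended on the peaks counted. The complex minus the rest of 3R was 2.10 with all peaks and -3.27 with ladder peaks alone. In 140 of 385 windows of 400 kb with at least 5 peaks, or 36.4%, the median score was at least that of the Antennapedia complex. For the bithorax complex this held in 98 of 332 windows of 370 kb, or 29.5%.

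Widths showed the same overlap. The median width was 284.5 bp in the Antennapedia complex (260 to 383 bp) and 328 bp in the bithorax complex (231 to 656 bp), against 316 bp (286 to 352 bp) on the rest of 3R. The Antennapedia peaks had a narrow range, from 232 to 394 bp, and the bithorax peaks ran from 201 to 791 bp, against 201 to 1238 bp on the rest of 3R. Wider peaks had higher scores in both complexes. Across peaks the Spearman coefficient was 0.62 over the 10 Antennapedia peaks and 0.85 over the 9 bithorax peaks, against 0.68 over the 183 peaks of the rest of 3R. Score and width come from the same call, so the coefficients describe the list.

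The 2 complexes differed in how close their peaks stood. A neighbour under 10 kb away was found for 6 of the 10 Antennapedia peaks, in 3 pairs, and for 2 of the 9 bithorax peaks, in 1 pair. The share was 33.3% on the rest of 3R and 40.3% over the whole list. The median distance to the nearest peak was 2.54 kb in the Antennapedia complex and 31.6 kb in the bithorax complex, against 33.0 kb on the rest of 3R. Between neighbouring middles the median distance was 20.5 kb over 9 gaps in the Antennapedia complex and 36.6 kb over 8 gaps in the bithorax complex, against 64.5 kb over 180 gaps on the rest of 3R. With peaks under 1 kb apart merged, the pair beginning at 2737907, 1 of the 3 Antennapedia pairs, became 1 peak. The Antennapedia count was then 9, while the bithorax count stayed at 9. The distances and shares of close neighbours given here are without merging and depend in part on that pair. The Antennapedia median of 2.54 kb is the spacing within the pair at the lowest coordinates. The next larger nearest distance in that complex is 11.4 kb, so this median is sensitive to merging. The difference between the complexes was not tested.

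**Figure D3:**
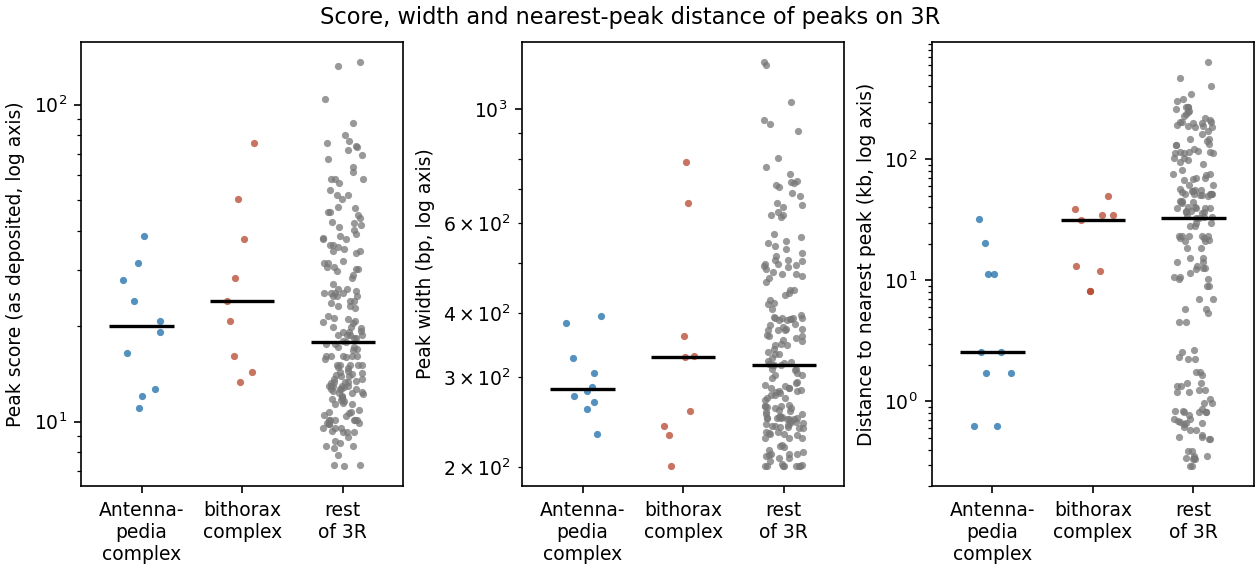
Score, width in bp and distance to the nearest peak in kb (log axes) of each peak in the Antennapedia complex, the bithorax complex and the rest of 3R, with a black line at each median. Scores and widths of the complexes lie within the range of the rest of 3R, and the distances of the Antennapedia complex have a lower median (2.54 kb) than those of the bithorax complex (31.6 kb) and the rest of 3R (33.0 kb).

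The same inferred read number occurred in both complexes. A score of 20.76, an inferred 141 reads, was shared by the Antennapedia peak beginning at 2534627 and the bithorax peak beginning at 12803719. A score of 24.08, an inferred 149 reads, was shared by the peaks beginning at 2617196 and 12783558. The list holds 12 peaks with a score of 20.76 and 6 with a score of 24.08. Equal scores are thus not particular to these peaks.

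Outside the windows, the nearest peak was close on 1 side of each complex and far away on the other. Above the Antennapedia window a peak from 2863180 to 2863442, with a score of 12.67, had its middle 13.3 kb outside, and below the window the nearest peak, from 2112282 to 2112523 with a score of 9.84, was 338 kb away. Below the bithorax window a peak from 12437142 to 12437375 scored 12.34 with its middle 12.7 kb outside, and above it the nearest, from 13360211 to 13360697 with a score of 29.87, was 540 kb away. The highest peak of the rest of 3R, from 796220 to 797126, scored 136.38 and lay in the dense region from 400001 to 1190000.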

How the data were processed

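The authors' deposited file is 1 list of peaks for the whole series with a first base, a last base and a score per peak. The deposited score is a number of unnamed quantity. Its coordinates follow FlyBase release 5 per the file headers, and MACS stands in the source field. The tools named in the submitters' processing notes are MACS2, BWA and CASAVA (1.7.0.2 and 1.7.0.3), with BDGP5 as the build. How libraries were pooled and which peak threshold was set is not given in the sources used here.

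Peaks were placed by their middle. Arm length was the highest peak end on 3R, 27754512, which stands in for its true end. Too short an arm raises the density of the rest of 3R and lowers the ratios to it, while the densities of the complexes use the fixed windows. Windows of equal size were placed every 10 kb in place of random ones. The Poisson mean behind the ladder was the one, between 20 and 150, that put most scores within 0.01 of a whole-read value. For scores spread evenly between ladder values, 5.59% of the list would lie that close. Both computations were tested on simulated data. Every peak in the windows is named, and outside them the nearest peaks, the highest peak and the densest windows. Members, genes and comparisons were chosen with earlier results of these data known. Peaks are not replicates. Python 3.11.15, numpy 2.4.6, pandas 2.3.3, scipy 1.17.1 and matplotlib 3.10.9 were used. Sequences of the peaks were not analysed here.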

Additional observations from a re-analysis of the deposited data

How the results depend on the processing

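Of 50 alternatives for the 10 results, 38 kept the sign of the main value and stayed within its interval or, for counts of peaks, within 1.5 times it. A further 3 changed sign within that interval, and 9 lay outside these limits. Most of these 9 are shares of windows. The interval of a share treats its windows as independent, but overlapping windows share peaks, so that interval is too narrow. For the shares of windows, lying within or outside it is therefore a description only. The density ratio lay between 3.26 and 5.00 for the Antennapedia complex and between 2.14 and 5.12 for the bithorax complex. The bithorax count was 4 with the windows narrowed by 50 kb on each side, against 9. The share of windows with at least as many peaks, 3.06% for the Antennapedia and 2.90% for the bithorax complex, was 1.20% and 1.00% with peaks under 1 kb apart merged, 1.64% and 1.55% without the first 2 Mb beside the centromere, and 0% and 0.502% with ladder peaks alone. For the bithorax complex it was 1.16% in the upper 50% by score. The median score of the Antennapedia complex minus that of the rest of 3R was 2.10, but -0.78 with merged peaks and -3.27 with ladder peaks alone. The median width minus that of the rest of 3R, in the upper 50% by score, was -96.5 bp for the Antennapedia complex, against -31.5 bp with all peaks. It was -54.5 bp for the bithorax complex, against 12.0 bp. The cause was not tested. Settings with ladder peaks for counts and windows, the windows without the centromere side, and the other arms for score and width were added after the list had been seen. No paired analysis was possible because values per library are missing from the list analysed here, and for the same reason no replicate was left out. Depth is unknown, and signal below the authors' threshold is not in the list.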

Other observations

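On the other large arms, too, few windows were as dense as the Hox complexes. At least 10 peaks were found in 0.708% of the windows of 400 kb on 2L, in 0.0831% of those on 3L and in none of the 2075 on 2R and 2171 on X. The highest counts were 11 on 2L, 10 on 3L, 9 on 2R and 8 on X. At least 9 peaks were found in 0.663% of the windows of 370 kb on 2L, 1.11% on 2R, 1.20% on 3L and none of the 2174 on X. With ladder peaks alone, which all 19 peaks of the complexes are, the highest count in 400 kb was 8 on 2L and 3L, 7 on 2R and 5 on X, against 10 in the Antennapedia complex. At 370 kb it was 8 on 2L, 7 on 2R and 3L and 5 on X, against 9 in the bithorax complex. These values were computed after the list had been seen and carry no test. All 19 peaks of the complexes but only 69.4% of those on 2L, 3L and X, a share that leaves out 2R, have ladder scores. The counts with ladder peaks alone therefore add no evidence of density.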
